A study of Mus musculus with 6 samples.

Results

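The 49 genes described here encode receptor tyrosine kinases, the cell surface receptors that pass growth factor, collagen and ephrin signals into the cell. They were chosen by gene symbol from a list of the receptor families, and all 49 were found among the 54838 genes of the count files. RNA was sequenced from B16F10, a pigmented and metastatic mouse melanoma cell line, in 6 libraries. The first group of 3 libraries came from cells given the vehicle DMSO and the second group of 3 from cells given GSK126, an inhibitor of the histone methyltransferase EZH2, at 10 µM. Both groups were the same cell line with no further genotype, in DMEM or RPMI-1640 medium with 10% fetal bovine serum, which itself carries growth factors. The sources used here do not state how long the cells were treated. The labels do not say that the replicates were separate cultures, so every p-value below measures a sample-to-sample spread that could be technical.

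A receptor tyrosine kinase binds its ligand outside the cell, forms dimers or larger clusters, and phosphorylates tyrosines on itself and its partners. Adaptor proteins such as GRB2, the SHC family and the IRS proteins dock on those tyrosines and switch on the RAS, RAF, MEK and ERK cascade and the PI3-kinase pathway. Active ERK induces its own brakes, among them the Sprouty and Spred proteins and the DUSP phosphatases, whose transcripts are therefore widely read as a gauge of the cascade's output. In melanocytes and melanoma, KIT, MET, ERBB3, AXL and the ephrin receptors are among the best studied members.

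Library totals ran from 13594939 to 14713373 counts, and 13601 genes passed the filter on low counts. The labelled cell type was checked against its markers. All 10 pigment cell markers had at least 1 CPM (counts scaled to equal library totals), with a summed level of 26879 to 27736 CPM in DMSO and 28748 to 30207 CPM in GSK126, and Tyrp1, a melanin synthesis enzyme, was the most abundant of them. Of 9 endothelial markers only Vwf reached 1 CPM, and it rose from 2.89 to 6.02 CPM (edgeR quasi-likelihood test, adjusted p = 0.00773), while Cdh5, Emcn, Cldn5, Kdr and Tek had no read. The summed endothelial level was 3.53 to 3.98 CPM in DMSO and 5.72 to 7.40 CPM in GSK126. Of 8 myeloid markers only Cd68 reached 1 CPM, with Adgre1, Itgam, Fcgr1 and Cd14 at no read and a summed level of 2.15 to 3.41 CPM in DMSO and 3.26 to 4.46 CPM in GSK126. Of 9 fibroblast and mural markers the 2 that reached it were the receptors Pdgfra and Pdgfrb themselves, with Rgs5 at no read and a summed level of 14.9 to 17.9 CPM in DMSO and 19.0 to 20.3 CPM in GSK126. None of 6 keratinocyte markers reached 1 CPM. Of 8 Schwann cell and neural crest markers 4 did, among them Erbb3, and the list summed to 125 to 147 CPM in DMSO and 148 to 162 CPM in GSK126.

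The 5 receptors that changed are described in most detail below. For 4 of them the 250 bases before the RefSeq start site, on build GRCm38.p6, are shown so that a reader can see which promoter letters stand before the genes that moved. The Met window lies at chr6:17463707-17463956 on the plus strand, and the count files start the gene 157 bases before the RefSeq start, inside the window. The Epha4 window lies at chr1:77515089-77515338 on the minus strand, directly before the gene. The Igf1r window lies at chr7:67952007-67952256 on the plus strand, and the files start the gene 570 bases after the RefSeq start. The Epha2 window lies at chr4:141300971-141301220 on the plus strand, with a start site 19 bases from that of the files. Capitals mark motif matches.
Met: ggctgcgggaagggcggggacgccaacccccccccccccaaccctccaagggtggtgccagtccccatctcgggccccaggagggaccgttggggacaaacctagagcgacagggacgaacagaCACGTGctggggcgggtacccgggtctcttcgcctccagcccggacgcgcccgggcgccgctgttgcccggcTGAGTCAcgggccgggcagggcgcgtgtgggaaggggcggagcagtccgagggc
Epha4: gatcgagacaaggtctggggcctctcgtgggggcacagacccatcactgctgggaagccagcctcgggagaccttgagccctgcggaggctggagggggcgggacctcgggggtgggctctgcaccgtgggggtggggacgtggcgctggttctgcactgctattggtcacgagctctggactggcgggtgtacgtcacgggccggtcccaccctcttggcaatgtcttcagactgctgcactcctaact
Igf1r: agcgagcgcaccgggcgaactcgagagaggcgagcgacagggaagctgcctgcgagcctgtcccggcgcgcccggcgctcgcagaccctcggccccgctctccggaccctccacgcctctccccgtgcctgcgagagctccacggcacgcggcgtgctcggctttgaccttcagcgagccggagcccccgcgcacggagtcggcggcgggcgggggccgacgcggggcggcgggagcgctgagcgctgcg
Epha2: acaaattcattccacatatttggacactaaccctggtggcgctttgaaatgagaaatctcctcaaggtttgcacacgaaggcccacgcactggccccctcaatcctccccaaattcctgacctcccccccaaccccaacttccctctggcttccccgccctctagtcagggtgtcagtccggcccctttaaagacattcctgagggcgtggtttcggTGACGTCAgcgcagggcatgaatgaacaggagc
The motifs were searched on both strands: TGANTCA (the AP-1 site), CCGGAAG (an ETS site), TCATGTG (the M-box bound by MITF), CACGTG (the E-box), GTAAACA (a FOXO site) and TGACGTCA (the site of CREB and ATF factors). Met held TGAGTCA at bases -54 to -48 from the start site and CACGTG at bases -126 to -121. Epha2 held TGACGTCA at bases -33 to -26. The Epha4 and Igf1r windows held none of these letters, which says nothing of other windows or of the factors. No match overlapped another. Over 32851 RefSeq windows of the same length, 6.75% held TGANTCA, 6.91% CCGGAAG, 3.25% TCATGTG, 6.02% CACGTG, 3.17% GTAAACA and 1.55% TGACGTCA. In CpG dinucleotides the Igf1r window was the richest of the 4, with 42, a number reached by 0.865% of all windows, against 24 for Met, 14 for Epha4, 9 for Epha2 and a median of 6 over all windows. Of the 49 receptors, 42 had an entry in this RefSeq table. The entry for Ddr2 lies 21818 bases from the gene's 5′ end in the files and is not printed.

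Expression was set at a mean of at least 1 CPM over the 6 libraries, and 26 of the 49 receptors reached it. Levels of different receptors are compared on the deposited FPKM scale, which is per length, and are given as the mean ± SD over the 6 libraries of both groups. Met, the receptor of hepatocyte growth factor, stood far above the rest at 165 ± 17.4 FPKM. Epha3, a receptor for A-type ephrins, followed at 37.9 ± 2.87 FPKM, so that the mean of Met was 4.36 times that of Epha3. Next came Ryk, a Wnt-binding receptor with an inactive kinase domain, at 18.4 ± 0.413 FPKM, and the collagen receptors Ddr2 at 18.0 ± 1.74 FPKM and Ddr1 at 16.5 ± 1.76 FPKM. These 5 were the receptors at or above 10 FPKM. Over the 6 libraries the means ± 1 SD of Ryk, Ddr2 and Ddr1 overlapped, a spread that includes any difference between the groups. By group, Ddr2 had 19.5 ± 0.300 FPKM in DMSO and 16.5 ± 0.956 FPKM in GSK126 (SD, n = 3). Ryk had 18.4 ± 0.299 and 18.5 ± 0.577 FPKM. On the FPKM scale Ryk lay below Ddr2 in every DMSO library and above Ddr2 in every GSK126 library. This swap rests on the gene lengths behind FPKM. They came to 2.57 times the longest coding transcript for Ryk and 1.83 times for Ddr2. Met and Epha3 were each clear of the next receptor over the 6 libraries.

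A middle group of 10 receptors lay between 1 and 10 FPKM. Erbb3, the kinase-impaired neuregulin receptor that signals by pairing with Erbb2, had 8.48 ± 1.08 FPKM, and Axl, a receptor of the TAM family that binds Gas6, had 7.78 ± 0.550 FPKM. These neighbours overlapped within 1 SD. Ephb4, a receptor for the ligand ephrin-B2, had 4.84 ± 0.218 FPKM and stood apart from both neighbours. The insulin receptor Insr had 3.72 ± 0.858 FPKM, Erbb2 had 3.46 ± 0.232 FPKM and the TAM receptor Tyro3 had 3.21 ± 0.183 FPKM, in an order their spreads do not separate. Igf1r, the receptor of the insulin-like growth factors, had 2.24 ± 0.270 FPKM. Pdgfrb, a receptor of platelet-derived growth factor, had 2.02 ± 0.232 FPKM, Epha7 had 1.60 ± 0.307 FPKM and Mertk, the third TAM receptor, had 1.12 ± 0.186 FPKM. From Igf1r down to Fgfr3 each receptor overlapped the next within 1 SD.

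The other 11 expressed receptors were below 1 FPKM. They were Ephb6 (0.830 ± 0.146 FPKM), which has an inactive kinase, Epha1 (0.808 ± 0.157 FPKM), Epha4 (0.674 ± 0.258 FPKM) and Epha2 (0.560 ± 0.274 FPKM). Below these lay Kit, the stem cell factor receptor on which melanocyte development depends, at 0.320 ± 0.0487 FPKM. Flt4, the receptor of VEGF-C, had 0.273 ± 0.0164 FPKM, and Ptk7, a pseudokinase of Wnt signalling, had 0.231 ± 0.0878 FPKM. The fibroblast growth factor receptors Fgfr3 and Fgfr1 had 0.185 ± 0.0557 and 0.0767 ± 0.0221 FPKM, Pdgfra had 0.0775 ± 0.0309 FPKM and Epha5 had 0.0502 ± 0.00956 FPKM. Of the Eph family, 8 members were thus expressed, from the second to the last place of the order. By group, Epha2 stood above Epha4 in DMSO, with means of 0.782 and 0.449 FPKM. In GSK126 it stood below Epha4, with means of 0.337 and 0.899 FPKM.

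**Figure D1:**
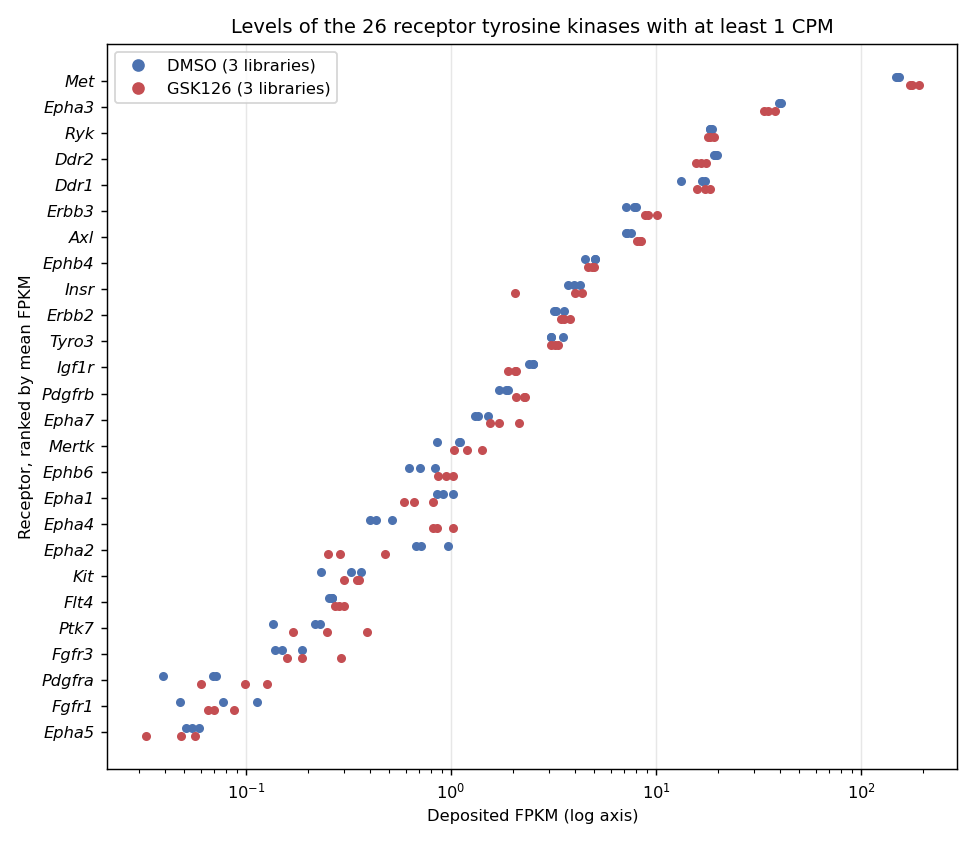
Deposited FPKM (log axis) of the 26 receptors with a mean of at least 1 CPM, ranked by their mean, with 1 point per library for the 3 DMSO and 3 GSK126 libraries. Met lies at 148 to 191 FPKM in all 6 libraries, and the points of Epha4 and Epha2 separate by group in opposite directions.

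The length behind the FPKM values is not stated, and the lengths they imply were 1.0 to 4.92 times the longest coding transcript of GENCODE M21. The largest ratio was that of Fgfr1, with an implied 24809 bp against 5041 bp. Per kilobase of the longest coding transcript, no expressed receptor moved by more than 2 places, with Erbb3 going from place 6 to 8 and Epha4 from place 18 to 16. The means over the 6 libraries were then 47.4 CPM per kilobase for Ryk, 32.9 for Ddr2 and 28.7 for Ddr1. At these lengths Ryk lies above Ddr2 in both groups. The overlap of Ryk with Ddr2 and their swap between the groups thus hold on the FPKM scale only. On the CPM scale the threshold fell between Epha5 at 1.09 and Pdgfra at 1.16 CPM inside it and Ephb3 at 0.786 and Ephb2 at 0.385 CPM outside it. At a threshold of 1 FPKM 15 receptors would count as expressed.

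The 23 receptors below 1 CPM included several that define other lineages. No read was found in any library for 9 of them: Ret, Ros1, Ror2, Musk, Kdr, Tek, Alk, Ephb1 and Flt3. A count of 0 over the 6 libraries allows up to 0.0354 CPM, taken as 3 counts over all libraries, a limit that covers counting error only. Another 13 had between 1 and 33 reads in all and were not tested: Ephb2, Ntrk3, Erbb4, Fgfr4, Ltk, Mst1r, Fgfr2, Csf1r, Tie1, Flt1, Ntrk2, Egfr and Ror1. Egfr, the founding member of the ErbB family, was thus near the detection limit while its relatives Erbb3 and Erbb2 were expressed, and of the VEGF receptors Flt4 alone reached 1 CPM. Ephb3 was below the threshold for expression but had enough reads to be tested.

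Between DMSO and GSK126, 5 of the 27 tested receptors changed (18.5%), against 11.1% of all 13601 genes tested (edgeR quasi-likelihood test, two-sided, Benjamini-Hochberg adjusted p below 0.05 over all genes tested). Met and Epha4 rose, where 5.87% of all genes did, and Epha2, Igf1r and Ddr2 fell, where 5.18% of all genes did. The 27 include every expressed receptor, and the other 22 receptors had too few reads. The median log2 fold change of the 27 was 0.12, with 16 above and 11 below 0, beside a median of 0.00 over all genes tested. In bulk RNA, less RNA per cell and fewer cells that carry it cannot be told apart. GSK126 and DMSO libraries did not overlap for 13 of the 27 receptors (48.1%), 8 with GSK126 above and 5 with GSK126 below, where this held for 34.4% of all genes tested, 17.6% above and 16.8% below. The standard error on the log2 scale had a median of 0.148 over the 27 and of 0.0768 over the 14 with more than 10 CPM.

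**Figure D2:**
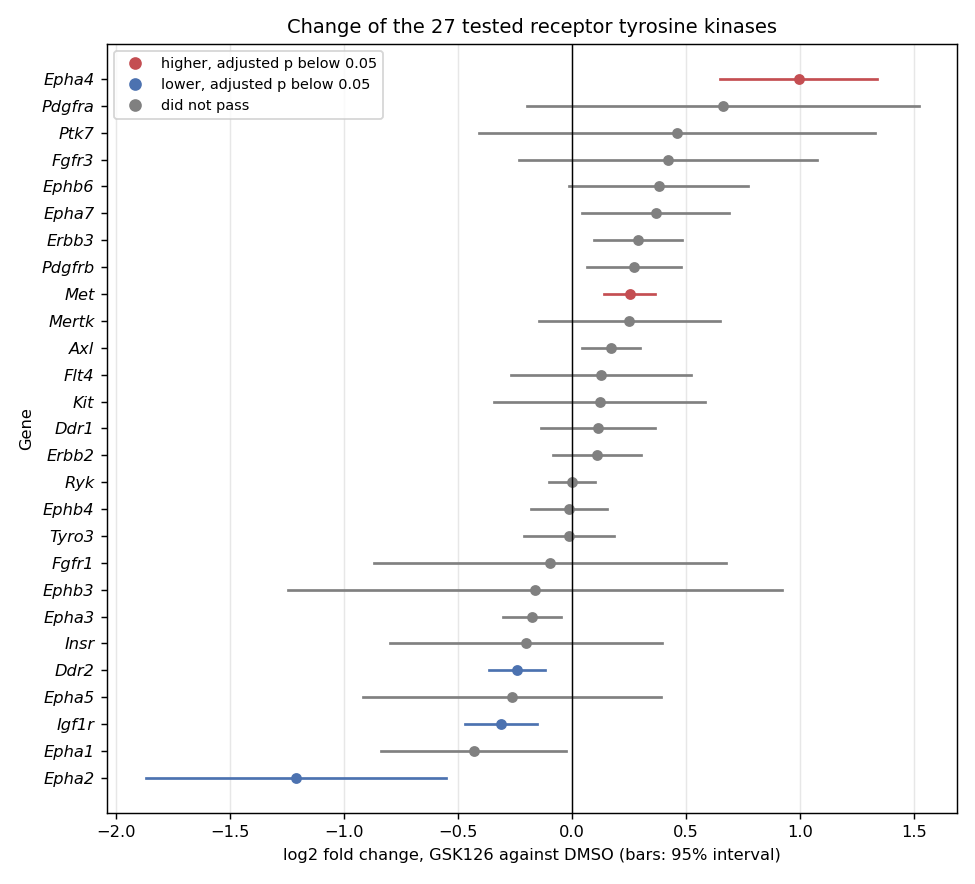
Log2 fold change of GSK126 against DMSO for the 27 tested receptors, with the unadjusted 95% interval of the edgeR fit as bars and colour for those with an adjusted p below 0.05. Epha4 at 0.99 and Epha2 at -1.21 mark the ends of the order, while Met, Ddr2 and Igf1r moved little but with narrow intervals.

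Met had 1749, 1766 and 1725 CPM in the DMSO libraries and 2038, 1992 and 2221 CPM in the GSK126 libraries. All GSK126 libraries lay above all DMSO libraries, each on at least 23275 reads. The group means were 1747 ± 21.0 and 2084 ± 121 CPM (SD, n = 3), a 1.19-fold rise (log2 fold change 0.25, SE 0.05, 95% interval 0.14 to 0.37, edgeR adjusted p = 0.0189). The gene lies at chr6:17463800-17573980 in the GRCm38 positions of the files. The call ended when DMSO replicate 1, 2 or 3 was left out (edgeR adjusted p = 0.0720, 0.0712 and 0.0664), with a log2 fold change of 0.24 to 0.26 in those fits.

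Met alone made up more of the receptor RNA than all other members together. It took 56.4 ± 0.818% of all reads on the 49 receptors in DMSO and 61.9 ± 0.570% in GSK126 (SD, n = 3). On the FPKM scale its share of the summed receptor level was 52.7 ± 0.917% and 57.7 ± 0.826%. The summed level of all 49 receptors was 3098 ± 27.7 CPM in DMSO and 3365 ± 168 CPM in GSK126. Without Met the expressed receptors summed to 1349 ± 33.4 and 1279 ± 48.7 CPM, 2 groups that overlapped.

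Epha4, which binds ephrins of both the A and the B type, had the highest fold change of the tested receptors. It had 68, 91 and 73 reads in the DMSO libraries and 146, 157 and 184 in the GSK126 libraries. In CPM these were 5.00, 6.47 and 5.41 against 10.2, 10.7 and 12.8, so that the lowest GSK126 library lay well above the highest DMSO library. The means were 5.63 ± 0.762 and 11.2 ± 1.41 CPM (SD, n = 3), a 1.99-fold rise (log2 fold change 0.99, SE 0.15, 95% interval 0.65 to 1.34, edgeR adjusted p = 0.00847). Epha4 lies at chr1:77367185-77515088. It passed the test in each fit that left out 1 library, with an edgeR adjusted p of 0.0185 to 0.0410.

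Epha2, a receptor for A-type ephrins that also acts without a ligand in many tumour cells, moved the other way. It had 51, 56 and 73 reads in DMSO and 20, 39 and 23 in GSK126. Every GSK126 library was below every DMSO library, at 1.40, 2.65 and 1.60 CPM against 3.75, 3.98 and 5.41 CPM. The means were 4.38 ± 0.898 and 1.88 ± 0.673 CPM (SD, n = 3), so that the DMSO level was 2.31 times the GSK126 level (log2 fold change -1.21, SE 0.28, 95% interval -1.87 to -0.55, edgeR adjusted p = 0.0364). Epha2 lies at chr4:141301240-141329384. The call rested on few reads and ended without DMSO replicate 1, 2 or 3 or GSK126 replicate 1 or 3 (edgeR adjusted p = 0.0804, 0.0912, 0.109, 0.104 and 0.0883), while the log2 fold change stayed between -1.54 and -1.03.

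Igf1r had 45.2, 47.8 and 47.9 CPM in DMSO and 38.7, 35.8 and 39.3 CPM in GSK126. The groups did not overlap, with 47.0 ± 1.52 CPM on average in DMSO and 37.9 ± 1.87 CPM in GSK126 (SD, n = 3). It fell by 0.31 on the log2 scale (SE 0.07, 95% interval -0.47 to -0.15, edgeR adjusted p = 0.0302). Igf1r lies at chr7:67952827-68233668. The call ended when any 1 library other than GSK126 replicate 3 was left out (DMSO replicates 1 to 3 at an edgeR adjusted p of 0.0706, 0.108 and 0.0943, GSK126 replicates 1 and 2 at 0.0742 and 0.0845), and the log2 fold change was -0.34 to -0.27 in the fits without 1 library.

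Its closest relative, Insr, had 56.2, 64.8 and 61.2 CPM in DMSO and 30.9, 60.9 and 66.7 CPM in GSK126. GSK126 replicate 1 was the low library, with 442 reads against 765 to 956 in the other 5. The log2 fold change was -0.20 (SE 0.25, edgeR adjusted p = 0.651), and 0.07 without GSK126 replicate 1 (adjusted p = 0.657).

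Ddr2, which binds fibrillar collagens, had 301, 305 and 313 CPM in DMSO and 257, 245 and 276 CPM in GSK126. All GSK126 libraries were below the DMSO libraries. The means were 306 ± 6.05 and 259 ± 15.7 CPM (SD, n = 3), and the gene fell by 0.24 on the log2 scale (SE 0.05, 95% interval -0.36 to -0.12, edgeR adjusted p = 0.0306). Ddr2 lies at chr1:169972307-170110762. As for Igf1r, the call was kept only without GSK126 replicate 3 among the fits that left out 1 library. It ended without DMSO replicates 1 to 3 (edgeR adjusted p = 0.0869, 0.0942 and 0.0933) and without GSK126 replicates 1 and 2 (0.0889 and 0.0787). The other collagen receptor, Ddr1, had 89.7, 113 and 118 CPM in DMSO and 116, 124 and 108 CPM in GSK126, overlapping groups with a log2 fold change of 0.12 (SE 0.11, adjusted p = 0.528). Whether the 2 collagen receptors differed in their response was not tested.

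**Figure D3:**
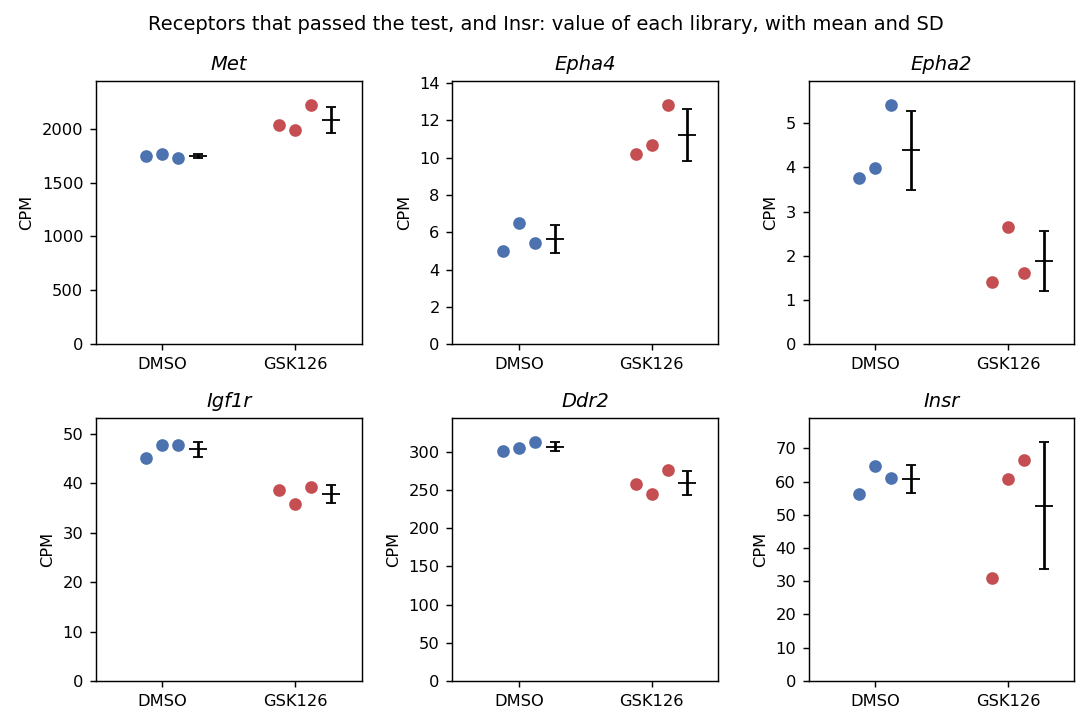
CPM of each library for the 5 receptors that passed the test and for Insr, with the mean and SD of each group of 3 libraries beside the points and each axis starting at 0. The groups are apart for Met, Epha4, Epha2, Igf1r and Ddr2, and GSK126 replicate 1 lies apart from the other Insr libraries at 30.9 CPM.

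The other 22 tested receptors did not pass. Among these 22, 8 had groups that did not overlap. The share over all genes tested, 34.4%, includes the genes that passed, so it is not matched to these 22. Epha3 had 421, 410 and 421 CPM in DMSO and 363, 349 and 397 CPM in GSK126, all lower (log2 fold change -0.18, SE 0.05, edgeR adjusted p = 0.0815). It passed when GSK126 replicate 3 was left out (log2 fold change -0.23, adjusted p = 0.0168). Erbb3 had 42.7, 48.2 and 47.1 CPM in DMSO and 52.6, 54.7 and 61.3 CPM in GSK126, all higher (log2 fold change 0.29, SE 0.08, adjusted p = 0.0679). Axl had 61.7, 61.2 and 64.8 CPM against 71.5, 68.7 and 71.4 CPM, again all higher (log2 fold change 0.17, SE 0.05, adjusted p = 0.0863).

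Pdgfrb had 14.6, 13.2 and 14.4 CPM in DMSO and 17.3, 15.97 and 17.7 CPM in GSK126 (log2 fold change 0.27, edgeR adjusted p = 0.0916), so that its groups lay apart as well. Epha7 gave a log2 fold change of 0.37 (adjusted p = 0.135), Ephb6 of 0.38 (adjusted p = 0.192) and Flt4 of 0.13 (adjusted p = 0.716), each with all GSK126 libraries above. Epha1 gave -0.43 (adjusted p = 0.159) with all GSK126 libraries below. Epha1 shares 236 bp of exon with Zyx on the opposite strand, and Zyx had 5997 reads against 335 for Epha1, so with no strand setting known its reads cannot be assigned firmly. The summed reads of the pair gave a log2 fold change of -0.76 (adjusted p = 0.00118), which mostly describes Zyx, a focal adhesion protein.

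For some receptors the edgeR intervals were narrow around 0. Ryk had 135 ± 1.87 CPM in DMSO and 135 ± 3.54 CPM in GSK126 (SD, n = 3), with a log2 fold change of 0.00 and a 95% interval of -0.10 to 0.10. Ephb4 gave -0.01 (-0.18 to 0.16), Tyro3 -0.01 (-0.21 to 0.18) and Erbb2 0.11 (-0.08 to 0.30). Erbb2 shares 9 bp of exon with Mien1. Over the 11 uncalled receptors above 10 CPM, Insr aside, the intervals together spanned -0.30 to 0.69. For the less abundant receptors the data bound a change only loosely. Mertk gave 0.25 (-0.15 to 0.65), Kit 0.12 (-0.34 to 0.58), Fgfr3 0.42 (-0.23 to 1.07), Ptk7 0.46 (-0.41 to 1.33), Pdgfra 0.66 (-0.20 to 1.52), Fgfr1 -0.10 (-0.87 to 0.68), Epha5 -0.26 (-0.92 to 0.39) and Ephb3 -0.16 (-1.24 to 0.92). A change of 2-fold, which is 1 on the log2 scale, lay inside the edgeR intervals of Fgfr3, Ptk7, Pdgfra and Ephb3. For Epha5 DESeq2 gave an SE of 0.513 against 0.279 by edgeR. Its SE was also larger for Ryk (0.0724 against 0.0434), Ephb4 (0.103 against 0.0713), Tyro3 (0.120 against 0.0841) and Erbb2 (0.127 against 0.0822). The edgeR intervals of these receptors are therefore not firm bounds.

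By family, the Eph receptors held calls in both directions. Epha4 rose, Epha2 fell, and the other 7 tested members did not pass. Their summed level was 500 ± 6.52 CPM in DMSO and 460 ± 27.9 CPM in GSK126, most of it Epha3. The ErbB, TAM, PDGF and KIT, VEGF and FGF receptor families had 2, 3, 3, 1 and 2 tested members. None passed by edgeR, DESeq2 or limma-voom. By edgeR 11.1% of all genes tested passed, and so few members cannot be told apart from that share. Erbb3, Axl and Pdgfrb were the members of these families with an unadjusted edgeR p below 0.05.

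Genes that ERK induces were read from the same fit, as the setting in which these receptors moved. Of 20 listed feedback and output genes 18 were tested, and 9 fell, 2 rose and 7 did not pass, where 5.18% of all genes fell and 5.87% rose. The median log2 fold change of the 18 was -0.35, with 14 below 0, beside 0.00 over all genes tested. The list's direction was known when it was chosen and is not independent evidence.

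The Sprouty proteins, which block receptor signalling upstream of RAF, were represented by Spry4, with 9.41, 8.54 and 7.71 CPM in DMSO and 4.61, 3.67 and 3.63 CPM in GSK126 (log2 fold change -1.11, SE 0.15, edgeR adjusted p = 0.00639). Spry2 fell by 0.53 (adjusted p = 0.0161) and the related Spred2 by 0.36 (adjusted p = 0.0432) on the log2 scale. The ERK phosphatase gene Dusp6 had 133, 128 and 120 CPM in DMSO and 74.5, 84.4 and 89.7 CPM in GSK126, without overlap (log2 fold change -0.62, SE 0.08, adjusted p = 0.00487). Dusp4, a nuclear phosphatase of ERK, fell by 0.55 (adjusted p = 0.00212).

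The PEA3 transcription factors, ETS proteins that ERK signalling induces, all fell. Etv5 had 11.7, 10.5 and 13.1 CPM in DMSO and 3.49, 3.40 and 3.63 CPM in GSK126 (log2 fold change -1.75, SE 0.13, edgeR adjusted p = 0.000713). Etv1 fell by 0.98 (adjusted p = 0.00522). Etv4 had 17, 16 and 24 reads in DMSO and 1, 2 and 0 in GSK126 (adjusted p = 0.00641). Ccnd1, the cyclin that couples growth factor signals to the cell cycle, had a mean of 213 CPM in DMSO and 98.8 CPM in GSK126 (log2 fold change -1.11, SE 0.06, adjusted p = 0.000178).

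Against the direction of the others, the immediate early gene Egr1 had 21.2, 27.5 and 18.9 CPM in DMSO and 85.8, 147 and 93.7 CPM in GSK126, a rise of 2.27 on the log2 scale (SE 0.23, edgeR adjusted p = 0.00214). Ier3, a second early response gene, rose by 0.44 (adjusted p = 0.0289). Spry1, Spred1, Spred3, Dusp5, Dusp7, Phlda1 and Il17rd did not pass. Of the 11 calls, Spry2 ended without DMSO replicate 1 or 2 or GSK126 replicate 1 (adjusted p = 0.0552, 0.0614 and 0.0559). Spred2 ended without any 1 library except GSK126 replicate 3 (0.0862 to 0.127) and Ier3 without any 1 library except GSK126 replicate 2 (0.0524 to 0.102). The other 8 kept their calls in each fit that left out 1 library. In the comparison in which 9 of these genes fell, the receptors that rose were thus Met and Epha4 and those that fell were Epha2, Igf1r and Ddr2. The 6 receptors next to Met in level had log2 fold changes between -0.24 and 0.29.

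**Figure D4:**
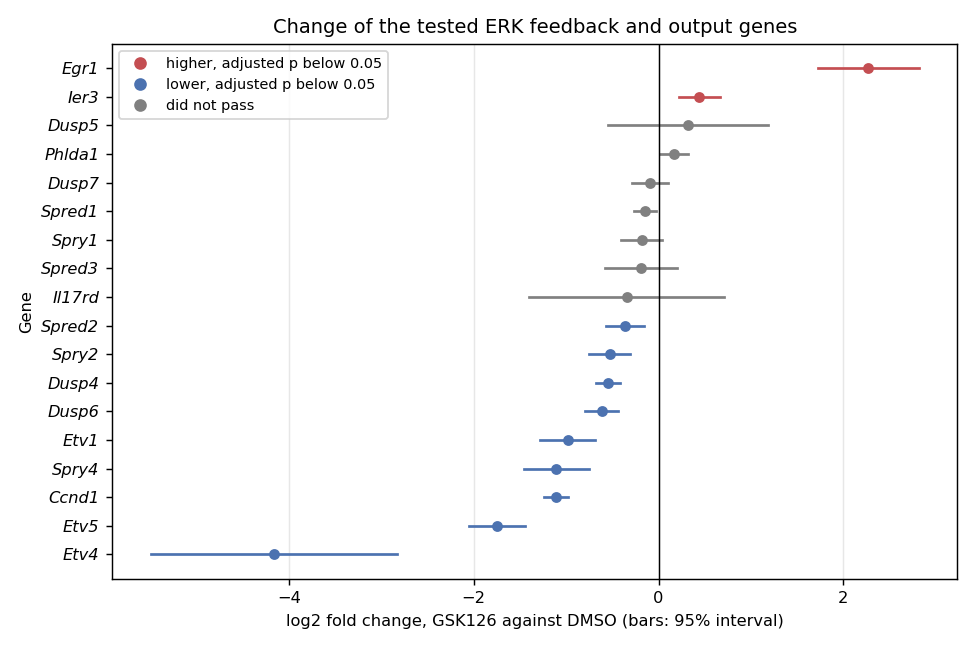
Log2 fold change of GSK126 against DMSO for the 18 tested ERK feedback and output genes, with the unadjusted 95% interval as bars. Etv4, which had 3 reads in all in GSK126, lies farthest below 0, and Egr1 and Ier3 are the genes that passed above 0.

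The ligands of the receptors that changed were searched in the same libraries. Hgf, the ligand of Met, had no read, and neither had Igf1. Igf2, the remaining ligand of Igf1r, varied from library to library, with 0.294, 0.213 and 7.41 CPM in DMSO and 1.74, 2.45 and 0 CPM in GSK126 (log2 fold change -0.90, SE 1.31, edgeR adjusted p = 0.699), and without DMSO replicate 3 its log2 fold change was 2.43. Of the ephrins, which the Eph receptors bind on neighbouring cells, 8 were tested and none passed by edgeR, DESeq2 or limma-voom. By edgeR 11.1% of all genes tested passed, and a list of 8 is too short to be told apart from that share. The 2 ephrins with an unadjusted edgeR p below 0.05 were Efna5 and Efnb3. Efna5 was the most abundant at 22.2 CPM in DMSO and 17.7 CPM in GSK126 (log2 fold change -0.32, adjusted p = 0.0810). Efnb3 came nearest to the threshold at 3.18 and 4.89 CPM (0.62, adjusted p = 0.0513), and passed without GSK126 replicate 3 (0.72, adjusted p = 0.0414), with a filter of at least 1 CPM in 3 libraries (adjusted p = 0.0484) and on FPKM with limma (adjusted p = 0.0385). Efna4 had 5.76 and 6.69 CPM and Efnb1 5.11 and 5.53 CPM.

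Of the collagens that bind Ddr1 or Ddr2, 5 were tested and none passed by edgeR, DESeq2 or limma-voom. A list of 5 is too short to be told apart from the 11.1% of all genes tested that passed by edgeR. Col1a2 was the 1 collagen with an unadjusted edgeR p below 0.05. The basement membrane genes Col4a1 and Col4a2, which share 22 bp of exon, had 67.8 and 45.5 CPM in DMSO and 71.3 and 44.3 CPM in GSK126. The fibrillar collagen gene Col1a2 had 21.9 and 17.1 CPM (log2 fold change -0.36, edgeR adjusted p = 0.0784) and passed without GSK126 replicate 1 (-0.47, adjusted p = 0.0487), and Col5a1 had 9.92 and 10.4 CPM. Over all ligand lists 39 genes were tested, and Pgf alone passed by edgeR, where 11.1% of all genes tested did. Pgf, a ligand of the VEGF receptor Flt1, rose from 1.26 to 2.64 CPM (log2 fold change 1.06, adjusted p = 0.0429), a call that ended in each fit that left out 1 library (0.0515 to 0.135). Pgf did not pass by DESeq2 (adjusted p = 0.0773) or limma-voom (adjusted p = 0.0568).

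The most abundant ligands of the other receptor families did not pass either. The TAM ligand Pros1 had 37.7 CPM in DMSO and 44.4 CPM in GSK126 (log2 fold change 0.24, edgeR adjusted p = 0.0693), while Gas6 had no read. Fgf1 had 24.6 and 18.9 CPM (-0.38, adjusted p = 0.0701) and passed without GSK126 replicate 1 (-0.50, adjusted p = 0.0299). Hbegf, a ligand of Egfr and Erbb4, had 4.58 and 3.98 CPM. Csf1, whose receptor gene Csf1r was below 1 CPM, had 64.4 and 63.7 CPM, and Agrn, the agrin gene, had 201 CPM in both groups. Mst1, the ligand of Mst1r, had no read.

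Among 31 tested adaptors and docking proteins 2 rose and 2 fell, where 5.87% of all genes tested rose and 5.18% fell. Shc4, an SHC family adaptor, had 23.0, 21.8 and 22.3 CPM in DMSO and 102.8, 116 and 155 CPM in GSK126, far apart (log2 fold change 2.48, SE 0.15, edgeR adjusted p = 0.000319). It shares 527 bp of exon with Eid1 on the opposite strand, and the summed reads of the pair gave 0.90 on the same scale. Pik3r3, a regulatory subunit of PI3-kinase, rose from 196 to 328 CPM (0.74, adjusted p = 0.000681). The docking proteins of the insulin and IGF receptors both fell: Irs2 from 17.5 to 11.9 CPM (-0.56, adjusted p = 0.0135) and Irs1 from 24.8 to 17.8 CPM (-0.48, adjusted p = 0.0461). Irs2 lost its call without DMSO replicate 2 or 3 (0.0552 and 0.0507) and Irs1 without any 1 library except GSK126 replicate 3 (0.0820 to 0.142), while Shc4 and Pik3r3 kept theirs in each such fit.

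Of 27 tested negative regulators, such as ubiquitin ligases and phosphatases that act on the receptors, none passed by edgeR, DESeq2 or limma-voom. By edgeR 11.1% of all genes tested passed, and 2 of the negative regulators had an unadjusted edgeR p below 0.05. Of 13 tested co-receptors 3 rose and 2 fell, beside 5.87% and 5.18% of all genes tested. Nrp1, a neuropilin that assists VEGF receptors, had 25.4, 25.2 and 23.2 CPM in DMSO and 39.4, 34.1 and 39.4 CPM in GSK126 (log2 fold change 0.61, edgeR adjusted p = 0.00714). Its relative Nrp2 went from 497 to 381 CPM (-0.39, adjusted p = 0.00270). The heparan sulfate proteoglycan Gpc1 rose from 129 to 173 CPM (0.42, adjusted p = 0.00235), and Sdc1, another of these proteoglycans, fell from 63.8 to 49.6 CPM (-0.36, adjusted p = 0.0361). Cd44, variants of which assist Met, rose from 590 to 670 CPM (0.18, adjusted p = 0.0213). Sdc1 lost its call without any 1 library (0.0601 to 0.110), and Cd44 without DMSO replicate 1, 2 or 3 or GSK126 replicate 2 (0.0857, 0.0828, 0.0722 and 0.0647).

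Of 12 sheddases and related genes, which cut receptors and ligands from the cell surface, 1 rose and 3 fell, again beside 5.87% and 5.18% of all genes tested. Adam10 rose from 152 to 189 CPM (log2 fold change 0.31, edgeR adjusted p = 0.0288). Adam9 had 352, 372 and 268 CPM in DMSO and 180, 210 and 220 CPM in GSK126 (-0.70, adjusted p = 0.0172). Rhbdf1, which helps mature ADAM17, fell by 0.53 (adjusted p = 0.0159) and Adam12 by 0.49 (adjusted p = 0.0288) on the log2 scale. Adam9 lost its call without DMSO replicate 1 or 2 or GSK126 replicate 1 (0.0578 to 0.0693), Rhbdf1 without GSK126 replicate 1 or 2 (0.0545 and 0.0531), Adam10 without DMSO replicate 1, 2 or 3 or GSK126 replicate 2 (0.0628 to 0.107), and Adam12 without any 1 library except GSK126 replicate 1 (0.0553 to 0.102). Over all these lists of receptor signalling 122 genes were tested, of which 7 rose and 7 fell, close to the 5.87% and 5.18% of all genes tested, with a median log2 fold change of 0.01 beside 0.00 over all genes tested.

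The calls on the receptors differed in how far they depended on the test used. The 5 receptors passed alike with DESeq2, limma-voom and the other scalings of library size. Without a filter on low counts, when 23352 genes share the adjustment, 2 of them remained, Met (adjusted p = 0.0372) and Epha4 (adjusted p = 0.0216). On the FPKM values with limma 4 passed and Igf1r did not (adjusted p = 0.0761). Epha4 was the receptor that passed in every setting tried, with an adjusted p between 0.000101 and 0.0410.

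**Figure D5:**
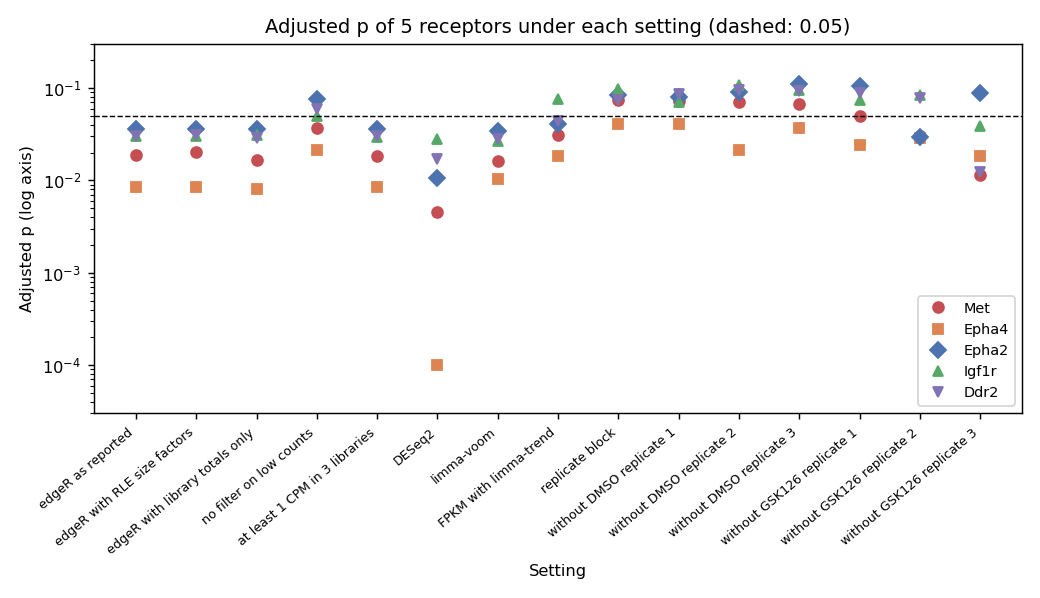
Adjusted p (log axis) of the 5 receptors that passed, under each way of testing and with each library left out, with the 0.05 threshold as a dashed line. The Epha4 points lie below the line in every setting, and the other 4 receptors cross it in the replicate block and in the fits without DMSO replicate 1, 2 or 3.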

How the data were processed

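RNA-seq libraries of 6 B16F10 samples were grouped by their treatment label. Per the submitters' processing notes, CASAVA 1.8 and HISAT2 were used with GRCm38.p4 (mm10). For the counting tool, strand setting and annotation, a name or version was not given in the sources used here. The authors deposited raw counts per gene for each sample, and FPKM values of the same libraries in 1 table. The deposited FPKM were proportional to counts over library total to within a ratio of 1.000017 between libraries (11012 genes), so depth is that of the counts.

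Counts were tested in R 4.3.3 with edgeR 4.0.16 (filterByExpr, TMM, glmQLFit and glmQLFTest, treatment as the only term), which kept 13601 genes. edgeR's biological coefficient of variation came to 0.119, and TMM factors ranged from 0.994 to 1.007. CPM values use TMM-scaled totals. Alternatives were run with DESeq2 1.42.0, and with limma 3.58.1 on voom weights and on log2(FPKM + 0.1), a scale that understates changes of low genes. Replicates within a group differed by more than counting noise, with a chi-square statistic 7.12 to 13.3 times its degrees of freedom. The fit was tested on simulated counts. It found 78 of 99 genes given a 2-fold change and 39 of 98 given a smaller change, with 6 false calls. A gene that did not pass may thus still have changed.

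The members, the gene lists, the tests and the naming rule were chosen with earlier results of these data known. The rule named every tested receptor, every ERK gene that passed, up to 4 genes that passed from each other list or else its most abundant member, and the ligands with at least 1 CPM of receptors that changed. Cd44, Gas6, Mst1, Zyx, Eid1, Mien1 and Grb2 were named after their values were seen. The result of 1 gene that the rule named is not reported here. Exon overlaps come from GENCODE M21 and promoter windows from RefSeq.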

Additional observations from a re-analysis of the deposited data

How the results depend on the processing

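The log2 fold changes of the 5 changed receptors kept their direction under every alternative tried. The number of changed receptors was 2 without a filter on low counts and 1 to 5 with 1 library left out. The changed genes of all tested were 899 and 529 to 1243 in the same settings, and those of the receptor signalling lists 9 and 6 to 12. The same replicate numbers in both groups were checked for pairing on log2 CPM minus each gene's group mean, not on the levels themselves. Correlations of these deviations between same-numbered libraries were 0.0149, 0.0145 and -0.0611. With 3 libraries per group, these values cannot show whether same-numbered libraries shared a culture or a day. With the replicate block 408 genes, 1 receptor and 5 genes of the lists passed, with fewer degrees of freedom. In these deviations no library correlated best with the library of its own number in the other group. A threshold of 1 FPKM left 15 receptors expressed. Signs turned only for genes that had not passed. Agrn gave log2 fold changes of 0.00397 with library totals alone, 8.83e-05 with at least 1 CPM in 3 libraries, 0.000556 with limma-voom, 0.00431 on FPKM and 0.000392 with the replicate block. Ryk gave -0.00251 without the filter, and Col4a2 0.0279 when summed with Col4a1. With 1 library left out the log2 fold changes ran from -0.0208 to 0.0333 for Agrn, -0.0196 to 0.0176 for Ryk, -0.0434 to 0.26 for Kit, -0.0682 to 0.0176 for Ephb4, -0.0518 to 0.0585 for Tyro3, -0.36 to 0.25 for Fgfr1, -0.41 to 0.18 for Ephb3, -0.405 to 0.0699 for Insr, -0.0747 to 0.23 for Col5a1, -1.58 to 2.43 for Igf2, -0.10 to 0.0537 for Csf1 and -0.0346 to 0.37 for Efnb1. The cause was not tested. Over 70 genes and all alternatives, 852 values kept their side of the threshold and their direction. Another 99 lost the call, 7 gained it and 28 changed sign. The 852 include genes that had not passed and stayed so, and only genes that had passed could lose a call. Fits that left out 1 library kept 5 libraries. The median edgeR standard error was 0.0768 for the 14 receptors above 10 CPM, against 0.148 over all 27 tested. How far depth sets this precision was not tested.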

Other observations

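Grb2, the adaptor that links many of these receptors to RAS, had 75.1, 79.5 and 84.5 CPM in DMSO and 84.7, 87.0 and 46.9 CPM in GSK126. GSK126 replicate 3 was the low library for Grb2, while GSK126 replicate 1 was the low library for Insr. The log2 fold change of Grb2 was -0.13 (edgeR adjusted p = 0.737).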
